A study of Mus musculus with 4 samples.

Results

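The genes of the mouse major histocompatibility complex (MHC) and of antigen presentation were followed across the cells of the brain vasculature. The module comprised every gene whose symbol began with H2-, together with B2m, Tap1, Tap2, Tapbp, Cd74, Ciita, Nlrc5, Psmb8, Psmb9 and Psmb10, which gave 44 of the 31053 genes counted. It held 2 classical class I heavy chains (H2-K1 and H2-D1), 22 non-classical class I heavy chains of the H2-Q, H2-T and H2-M series, 8 genes of class I assembly and peptide supply, 11 class II genes and 1 gene, H2-Ke6, that carries the prefix for its position in the locus but encodes a steroid dehydrogenase. Class I (32 genes) and class II (11 genes) were summed apart, without H2-Ke6. The genes counted held no H2-Ea, the α chain of H2-E. H2-Eb1 and H2-Eb2 are genes of its β chain, so their RNA does not show that an H2-E molecule was made.

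The cells came from wild-type male C57BL/6 mice aged 12 to 14 weeks, and all groups were examined at day 14. Chronic social defeat (CSD) mice lived for 14 days in the cage of an aggressive CD-1 mouse, behind a partition. It was lifted for 5 min a day. Home cage (HC) mice were pair-housed with a CD-1 mouse for as long, across a partition that was not lifted. Brains without cerebellum, striatum, brainstem and olfactory bulbs were dissociated, cells were captured with CD31 antibody beads and RNA was counted by 3′ single-cell sequencing (chemistry version 3.1) with unique molecular identifiers (UMIs). Each condition had 2 libraries, and each library was 1 pool of 4 mice, so n counts pools and the spread of single animals within a pool was not measured.

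Class I molecules are assembled from a heavy chain and β2-microglobulin, the product of B2m. They carry peptides that the proteasome, with the inducible subunits Psmb8, Psmb9 and Psmb10, cuts in the cytosol, that the Tap1-Tap2 transporter moves into the endoplasmic reticulum and that tapasin (Tapbp) helps to load; almost every nucleated cell makes them, and CD8 T cells read them. Class II molecules are made by antigen-presenting cells and are read by CD4 T cells: the H2-A and H2-E chains travel with the invariant chain (Cd74), H2-DM exchanges the remnant of that chain for peptide and H2-O restrains H2-DM. In the healthy brain, endothelial cells are known for high class I, and class II is known mainly from macrophages at the borders and from dendritic cells.

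Cells were barcodes with at least 500 UMIs, at least 250 genes and at most 25% mitochondrial UMIs: 4079 in CSD 1, 2553 in CSD 2, 2849 in HC 1 and 4934 in HC 2. Total depth was 27297599 to 30361474 UMIs per library, the median cell held 1408 to 2357 UMIs, and the libraries shared 0 to 9 cell barcodes pairwise. CSD 2 stood apart: the mitochondrial limit removed 5208 of its 7761 barcodes against 1384 to 3839 in the other libraries, and 32.6% of its UMIs lay in cells against 51.8 to 56.8%. The part of this in its values was not tested. Of the 14415 cells, 12642 (87.7%) were placed in a class by markers that held no member of the module, and each of the 11 classes tested had all its own markers detected. The capillary class had the fenestrated markers Plvap and Esm1 beside Cxcl12 and Rgcc among its leading genes, the venous class was led by the inflammatory genes Vcam1, Lcn2, Icam1 and Cxcl1 beside Ackr1 and Vwf, and the endothelial class comprised all endothelial cells, the 3 subclasses included. A level is given as UMIs per 1000000 UMIs of the class in a library (CPM), as mean ± SD over the 4 libraries unless single libraries are named. With 3′ counting a transcript gives a UMI whatever its length, so levels of different genes are in the same unit, but the H2-K, H2-D, H2-Q and H2-T heavy chains are near-identical in places and their reads may have been split between them or left out.

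All 34 H2- genes lay on chromosome 17 within 3.49 Mb (33996017 to 37483552, GRCm38), while B2m lay on chromosome 2, Nlrc5 and Psmb10 on 8, Ciita on 16 and Cd74 on 18. The 250 bases before the RefSeq start (GRCm38.p6) are shown for the 6 genes on which the contrast between class I, class II and H2-DM turned, 5′ to 3′ on the strand of the gene, with matches to the motifs named after them in capitals. A window was found for 37 of the 44 members.

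H2-K1, chr17:34000348-34000597, minus strand: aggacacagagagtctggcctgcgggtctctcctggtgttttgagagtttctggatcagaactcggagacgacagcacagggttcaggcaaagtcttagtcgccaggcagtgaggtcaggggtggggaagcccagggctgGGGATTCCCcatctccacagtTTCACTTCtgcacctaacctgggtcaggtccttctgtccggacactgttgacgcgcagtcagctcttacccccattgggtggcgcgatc

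H2-D1, chr17:35262844-35263093, plus strand: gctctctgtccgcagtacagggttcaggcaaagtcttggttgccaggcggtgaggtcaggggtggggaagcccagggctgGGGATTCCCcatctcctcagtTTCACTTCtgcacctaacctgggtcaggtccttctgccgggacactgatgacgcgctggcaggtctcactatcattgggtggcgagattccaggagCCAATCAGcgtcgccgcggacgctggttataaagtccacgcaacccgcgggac

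B2m, chr2:122147437-122147686, plus strand: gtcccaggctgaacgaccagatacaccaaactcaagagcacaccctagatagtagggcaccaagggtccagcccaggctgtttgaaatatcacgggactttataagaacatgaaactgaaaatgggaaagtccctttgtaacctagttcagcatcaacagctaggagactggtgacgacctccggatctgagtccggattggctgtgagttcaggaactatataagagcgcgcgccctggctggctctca

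H2-Aa, chr17:34287824-34288073, minus strand: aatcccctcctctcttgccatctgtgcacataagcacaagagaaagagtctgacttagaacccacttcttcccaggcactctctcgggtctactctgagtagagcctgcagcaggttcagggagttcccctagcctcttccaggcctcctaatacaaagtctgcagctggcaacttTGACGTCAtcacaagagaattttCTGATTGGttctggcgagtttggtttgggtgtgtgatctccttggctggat

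H2-Eb1, chr17:34305617-34305866, plus strand: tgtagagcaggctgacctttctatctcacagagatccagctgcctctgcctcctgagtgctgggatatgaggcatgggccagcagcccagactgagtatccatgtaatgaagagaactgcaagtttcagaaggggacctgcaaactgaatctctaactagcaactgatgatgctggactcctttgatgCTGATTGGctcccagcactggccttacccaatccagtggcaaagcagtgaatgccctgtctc

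H2-DMb1, chr17:34152941-34153190, plus strand: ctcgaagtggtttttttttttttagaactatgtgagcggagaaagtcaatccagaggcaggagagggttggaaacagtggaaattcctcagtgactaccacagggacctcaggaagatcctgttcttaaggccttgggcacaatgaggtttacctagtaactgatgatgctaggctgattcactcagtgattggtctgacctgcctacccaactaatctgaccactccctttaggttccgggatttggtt

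The windows of H2-K1 and H2-D1 shared the letters GGGATTCCC, an NF-κB site, at -110 and -170, and TTCACTTC, part of an interferon response element, at -89 and -149. The NF-κB letters were found, on either strand, in 4 of 28 class I genes with a window (H2-D1, H2-K1, H2-Q6 and H2-Q7), in 0 of 8 class II genes and in 0.301% of all 32851 windows. TTCACTTC was found in 7 class I genes, 0 class II genes and 1.20% of all windows. The Y box CTGATTGG stood at -51 in H2-Aa and -62 in H2-Eb1 and, on the opposite strand, at -53 in H2-D1. It was found in 14 class I genes, 4 class II genes and 3.83% of all windows. TGACGTCA, the letters of a cyclic AMP response element and of the X2 box, stood at -74 in H2-Aa (1.55% of all windows). The B2m and H2-DMb1 windows held no exact match to these letters. Sites that differ from them by a base were not searched for, so the lack of a match does not show that a site is absent. For H2-D1 and H2-DMb1 the GENCODE gene begins before the RefSeq start, so their windows depend on which start is taken. A match is a description of letters, and no binding was measured here.

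The module was sparse in its tail and dense in a few genes. Its 125995 UMIs made up 0.222% of all UMIs in cells. B2m (34171 UMIs), H2-D1 (23610) and H2-K1 (19521) held the most, 26 members had at least 100 UMIs, and 4 had 10 to 99 (Nlrc5 86, H2-DMb2 72, H2-M5 44 and Ciita 21). H2-Q1 and H2-Q2 had 4 UMIs each, H2-M2 had 2 and H2-M9 had 1. The remaining 10 members, H2-Eb2, H2-T3, H2-M1, H2-M11 and the 6 H2-M10 genes, were at 0 of 56720749 UMIs, which allows up to 3. Of the 22 non-classical heavy chains, 9 were at 0.

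Class I was high in T cells and endothelial cells and low in mural and neural classes. Its summed level was 10318 ± 896 CPM in T cells (n = 4), 5641 ± 362 in arterial endothelial cells, 4550 ± 523 in venous, 4213 ± 514 in all endothelial cells and 3598 ± 311 in capillary endothelial cells. Microglia held 3909 ± 107, below all endothelial cells when the class total is the scale and above them when the totals are scaled by TMM (trimmed mean of M-values; 4815 against 4113), so the order of these neighbours depends on the scale. Pericytes held 1151 ± 241, arterial smooth muscle 973 ± 94.5, astrocytes 703 ± 211, ependymal cells 550 ± 79.1 and choroid plexus 303 ± 28.8. Among these 11 classes the T cell libraries lay apart at 9535 to 11608, and arterial cells were above venous cells in 4 of 4 libraries although the ranges overlapped (5155 to 5925 against 4138 to 5317). Venous, endothelial, microglial and capillary neighbours overlapped, whereas every capillary library was above every pericyte library. Among the sparse classes, which were not tested, NK cells held 9006, 11864 and 13750 CPM from 5 cells in 3 libraries and so overlapped with T cells, B cells held 5347 ± 448, monocytes or dendritic cells 5056 ± 895 and border-associated macrophages 4228 ± 155. RNA outside cells, taken from barcodes with at most 100 UMIs, held class I at 747 to 880 CPM, and the mean levels of astrocytes, ependymal cells and choroid plexus lay below it.

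**Figure D1:**
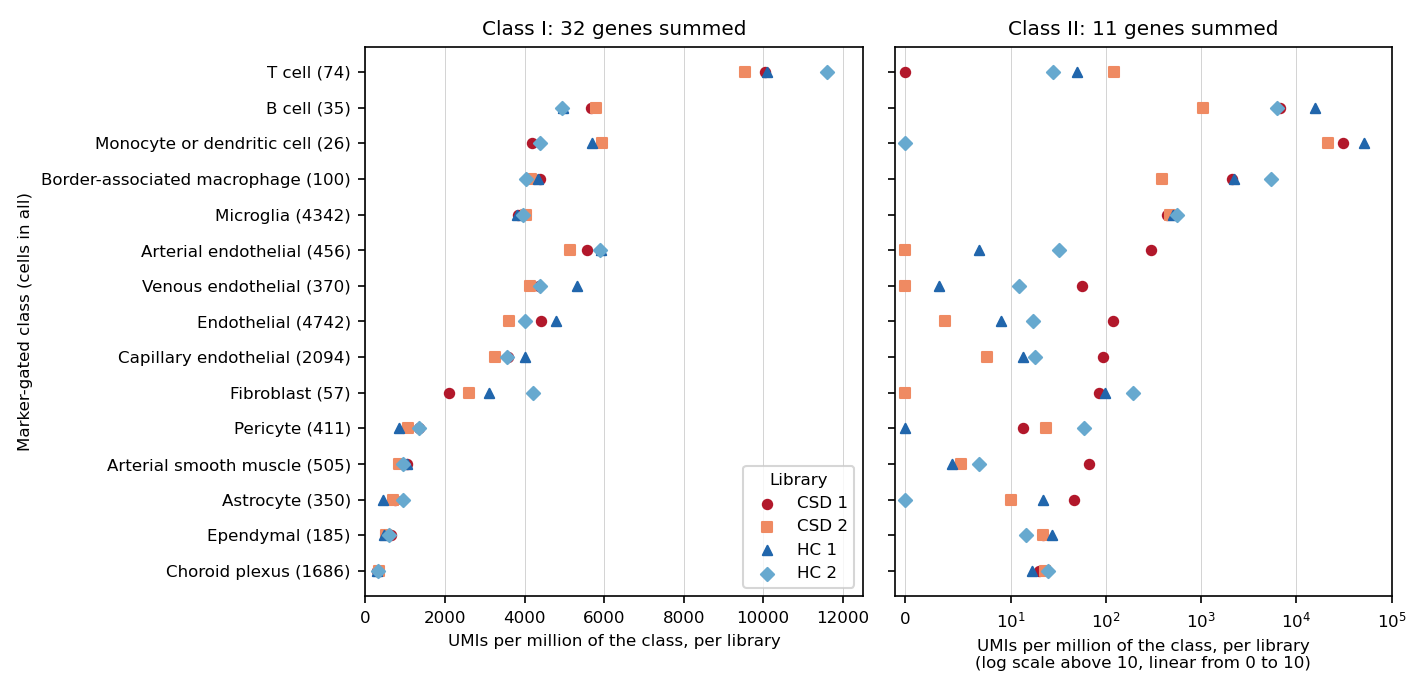
Summed class I (left, linear axis) and class II (right, log axis above 10) levels in CPM of the class, with 1 point per library and the number of cells of each class in parentheses. Class I points of T cells lie at 9535 to 11608, endothelial and microglial points between 3246 and 5925, and choroid plexus points near 303; class II points of microglia cluster at 441 to 557, while those of endothelial cells spread from 3.74 to 117.

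Depth per cell moved with part of this order, since arterial cells had a median of 2151 UMIs and capillary cells 957.5, and its part in the difference was not tested. In cells with at least 1000 UMIs the summed level was 5671 ± 481 in arterial and 3657 ± 290 in capillary cells.

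The classical heavy chains H2-K1 and H2-D1 present peptides to CD8 T cells. In endothelial cells H2-D1 stood at 1168 and 1023 CPM in CSD 1 and CSD 2 and at 1198 and 1044 in HC 1 and HC 2, and H2-K1 at 920 and 767 against 1016 and 789. The ranges of the 2 conditions overlapped for both genes. In T cells the order of the chains was the other way round, with H2-K1 at 2861 ± 303 CPM and H2-D1 at 2129 ± 168. H2-K1 made up 57.3% ± 1.96 of the UMIs of both genes in T cells (n = 4 libraries), 44.0% ± 1.39 in endothelial cells and 43.1% ± 2.91 in microglia. In astrocytes it made up 74.1% ± 12.6, from 127 H2-K1 and 57 H2-D1 UMIs.

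Among the non-classical chains H2-T23 (Qa-1, the ligand of the inhibitory receptor NKG2A) was the most abundant, at 279 ± 26.0 CPM in endothelial cells, 178 ± 5.71 in microglia and 21.3 ± 2.13 in choroid plexus. H2-Q7 (Qa-2) stood in T cells at 797, 908, 841 and 640 CPM in CSD 1, CSD 2, HC 1 and HC 2. In endothelial cells its mean was 38.6, where HC 1 held 74.7 and the other libraries 18.2 to 34.6. Its levels in NK and B cells are not given here, so it is not shown to be particular to T cells. H2-M5 was counted mostly in choroid plexus (38 of its 44 UMIs), whose cells held a median of 13712 UMIs, at 1.30 ± 0.539 CPM. The share of non-classical chains among heavy-chain UMIs was 20.8% ± 1.51 in endothelial cells, 22.01% ± 1.08 in microglia and 25.6% ± 1.94 in T cells.

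B2m, the shared light chain, stood at 2324 ± 320 CPM in T cells, 1642 ± 76.0 in microglia, 1453 ± 141 in arterial and 935 ± 110 in capillary endothelial cells, and fell to 264 ± 75.1 in pericytes, 87.3 ± 5.68 in choroid plexus and 36.6 ± 19.4 in ependymal cells. With each cell thinned to 500 UMIs, 53.2% of microglia (95% exact binomial interval 51.7 to 54.7), 37.1% of endothelial cells (35.7 to 38.5) and 4.45% of choroid plexus cells (3.51 to 5.54) had a B2m UMI. Without thinning these shares were 90.5, 62.8 and 58.7% at medians of 2114.5, 1099.5 and 13712 UMIs per cell. The 6 genes of peptide supply summed to 612 ± 58.8 CPM in endothelial cells, 547 ± 66.1 in microglia and 78.5 ± 5.63 in choroid plexus. Of these, the immunoproteasome subunit Psmb8 stood at 577 ± 191 CPM in T cells, 191 ± 43.1 in microglia, 151 ± 26.3 in endothelial cells and 2.08 ± 0.414 in choroid plexus. Nlrc5, the transactivator of class I genes, gave 86 UMIs in all, 39 of them in endothelial cells.

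**Figure D2:**
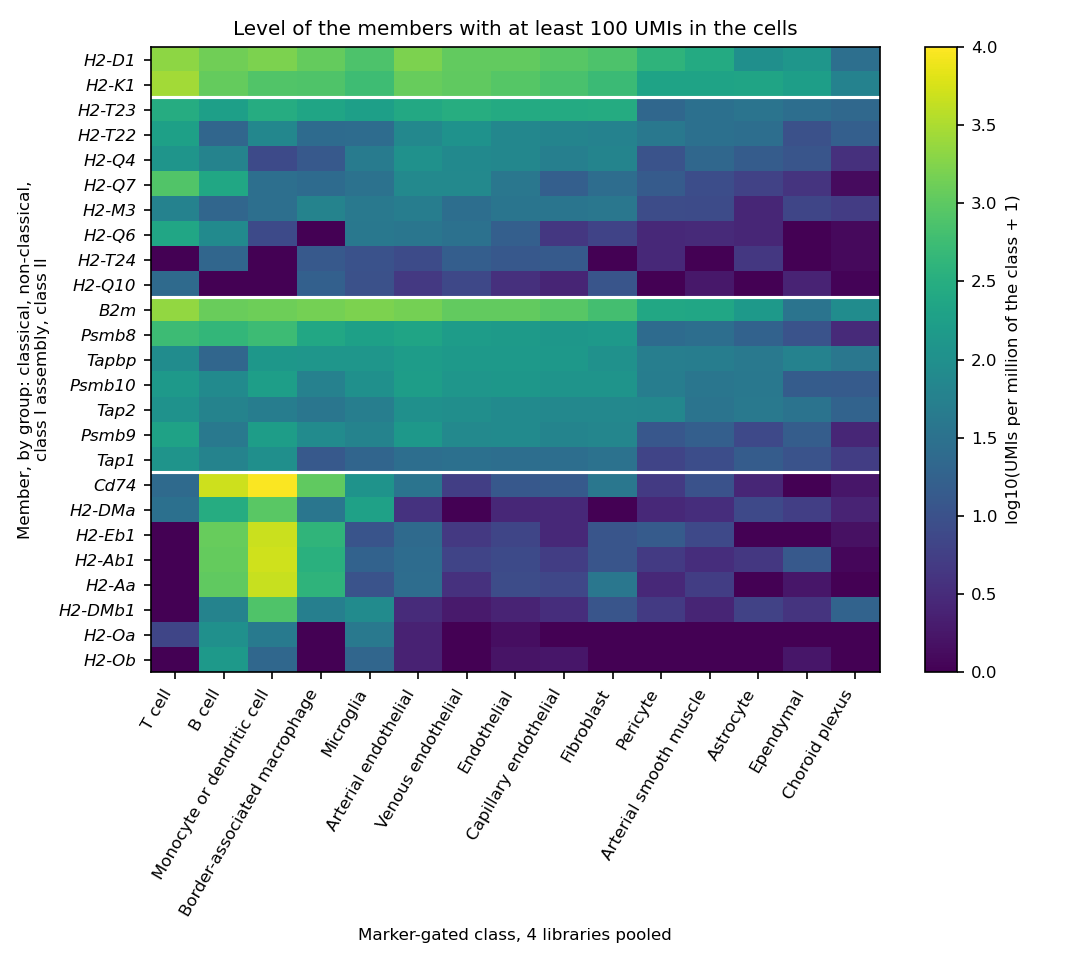
Level of each member with at least 100 UMIs (rows, H2-Ke6 left out) in each marker-gated class (columns, 4 libraries pooled) as log10 of CPM plus 1. The rows of H2-D1, H2-K1 and B2m are bright from T cells to fibroblasts and darker in mural and neural classes, and the class II rows at the bottom are bright in monocytes or dendritic cells, B cells and border-associated macrophages, with H2-DMa, H2-DMb1, H2-Oa and H2-Ob also seen in microglia.

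Each class was then tested against endothelial cells over the 4 libraries with edgeR's quasi-likelihood test and Benjamini-Hochberg adjustment over 11000 genes; 21 members passed the filter on low counts, and all these comparisons share the endothelial libraries. In mural, neural and choroid plexus cells most class I members tested were lower: 14 of 16 in pericytes, where Tap2 and H2-Q10 were not called, 15 of 16 in smooth muscle, astrocytes and ependymal cells, and 16 of 16 in choroid plexus. Over all members tested, pericytes had 14 lower and 0 higher (29.5% of all genes tested were called), arterial smooth muscle 15 lower and 0 higher (45.2%), astrocytes 15 lower and 0 higher (44.8%), ependymal cells 16 lower and 0 higher (61.9%) and choroid plexus 17 lower and 2 higher (75.5%). Those of ependymal cells and choroid plexus included Cd74, a class II gene (-6.57, SE 2.37, and -3.08, SE 0.58). The endothelial side of these Cd74 values rests on 90 UMIs, 77 of them in 4 cells of CSD 1, and ependymal cells held 0. Cd74 passed the filter on low counts through the classes where it is high, so its calls are no support for a direction. The median log2 fold change of the 16 class I members was -2.43 in pericytes, -1.86 in smooth muscle, -3.01 in astrocytes, -2.92 in ependymal cells and -2.95 in choroid plexus, beside all-gene medians of -0.26, -0.14, -0.22, -0.20 and -0.10. B2m fell by 2.37 (SE 0.22, adjusted p = 2.64e-14) in pericytes and by 5.05 (SE 0.26, adjusted p = 2.10e-26) in ependymal cells on the log2 scale. In astrocytes H2-D1 fell by 3.75 (SE 0.23) and H2-K1 by 2.15 (SE 0.19), both past the threshold. H2-T23 fell by 4.01 (SE 0.34) in pericytes and by 3.07 (SE 0.21) in smooth muscle. Scaling by median-ratio size factors in place of TMM shifted the median of all genes by 0.53 in astrocytes, 0.33 in pericytes, 0.23 in ependymal cells, 0.55 in T cells and -0.12 in microglia.

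The 2 members higher in choroid plexus were H2-Ke6 (log2 fold change 1.29, SE 0.14, adjusted p = 4.63e-13), the dehydrogenase, and H2-DMb1 (4.27, SE 0.31, adjusted p = 1.85e-19), a chain of H2-DM. H2-DMb1 passed the filter on low counts through the classes where it is high, and endothelial cells held 35 UMIs of H2-DM and H2-O in all. The call on H2-DMb1 is thus no support for a direction. H2-DMb1 stood at 16.6, 20.3, 13.8 and 21.2 CPM in CSD 1, CSD 2, HC 1 and HC 2, above 7.71 to 11.6 in RNA outside cells. Its partner chain H2-DMa gave 42 UMIs there against 486 of H2-DMb1, whereas microglia held 2049 against 902.

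T cells had 9 members higher and 1 lower than endothelial cells (35.5% of all genes called; 11 and 0 with median-ratio size factors), beside a median of -1.34 over all genes. The higher ones included H2-Q7 (log2 fold change 3.90, SE 0.32, adjusted p = 2.36e-16), H2-Q6 (3.45, SE 0.44), Psmb8 (1.37, SE 0.25), Tap1 (1.58, SE 0.39) and H2-K1 (1.18, SE 0.16). B2m was 0.57 higher (SE 0.19, adjusted p = 0.0154), a call lost with the stricter gate (0.26). Tapbp fell by 1.20 (SE 0.34, adjusted p = 0.00324), a call lost with median-ratio size factors and without CSD 1 or CSD 2. H2-D1 was 0.40 higher (SE 0.17, adjusted p = 0.0623), not past the threshold, and called with median-ratio size factors. H2-DMa, among the 9 higher, passed the filter on low counts through the classes where it is high. T cells held 6 UMIs of H2-DM and H2-O in all, 4 in CSD 2 and 2 in HC 1. The call on H2-DMa is thus no support for a direction. Without CSD 2 H2-DMa was also no longer called higher (1.78 against 3.40).

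Microglia had 9 members higher and 3 lower (61.1% of all genes called; 9 and 6 with median-ratio size factors, which added H2-K1, H2-D1 and H2-T23 to those lower). The class II members higher were H2-DMa (log2 fold change 6.98, SE 0.25), H2-Oa (6.75, SE 0.38), H2-DMb1 (6.01, SE 0.27) and Cd74 (3.83, SE 0.32). These 4 passed the filter on low counts through the classes where they are high. Endothelial cells held 35 UMIs of H2-DM and H2-O in all, and 90 of Cd74, 77 of them in 4 cells of CSD 1. The number of these 4 genes is thus no support for a direction. H2-Aa, H2-Ab1, H2-Eb1, H2-Ob, H2-DMb2 and Ciita did not pass the filter and were not tested here. Of the 16 class I members 5 were higher, among them H2-Q6 (1.69, SE 0.24), B2m (0.93, SE 0.17, adjusted p = 3.01e-06) and Psmb8 (0.67, SE 0.16), and 3 were lower, H2-T22 (-1.16, SE 0.14), H2-Q4 (-0.36, SE 0.14) and Tap2 (-0.35, SE 0.15). The class I median was -0.06 and that of all genes -0.05.

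Class II was divided between chains and classes. In monocytes or dendritic cells the summed class II level was 31174, 21283, 51021 and 0 CPM in CSD 1, CSD 2, HC 1 and HC 2. In B cells it was 6660, 1053, 15525 and 6316 CPM in the same order. In microglia the summed class II level was 441, 468, 505 and 557 CPM in CSD 1, CSD 2, HC 1 and HC 2. H2-DM and H2-O, the chains that edit and restrain peptide loading, gave 294, 389, 313 and 362 CPM of it. H2-Aa, H2-Ab1 and H2-Eb1, genes of H2-A and H2-E chains, gave 23.3, 12.2, 45.7 and 75.3. H2-DM and H2-O thus made up 90.2% of the 4035 UMIs of both groups in microglia (95% exact binomial interval 89.3 to 91.1, counting error only) and 82.8 to 97.0% by library. The share was 96.4% in choroid plexus (94.4 to 97.8), nearly all H2-DMb1, but 11.2% in monocytes or dendritic cells (9.98 to 12.6), 19.6% in B cells (14.5 to 25.7), 7.12% in border-associated macrophages (4.52 to 10.6) and 18.2% in endothelial cells (13.04 to 24.4). A few cells carried the shares of the last 2: by library the endothelial share was 10.3% in CSD 1, 37.5% in CSD 2, 26.7% in HC 1 and 56.5% in HC 2, and 6 of the 100 macrophages held 519 of their 553 UMIs of Cd74 and the H2-A and H2-E chains. With the stricter gate class II in these macrophages was 519.9 CPM in place of 2533. Cd74 in microglia stood at 123, 66.6, 145 and 120 CPM, with CSD 2 the lowest. These shares were not tested, since the monocyte or dendritic, B cell and border-associated macrophage classes held 26, 35 and 100 cells and as few as 1 to 5 in a library.

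**Figure D3:**
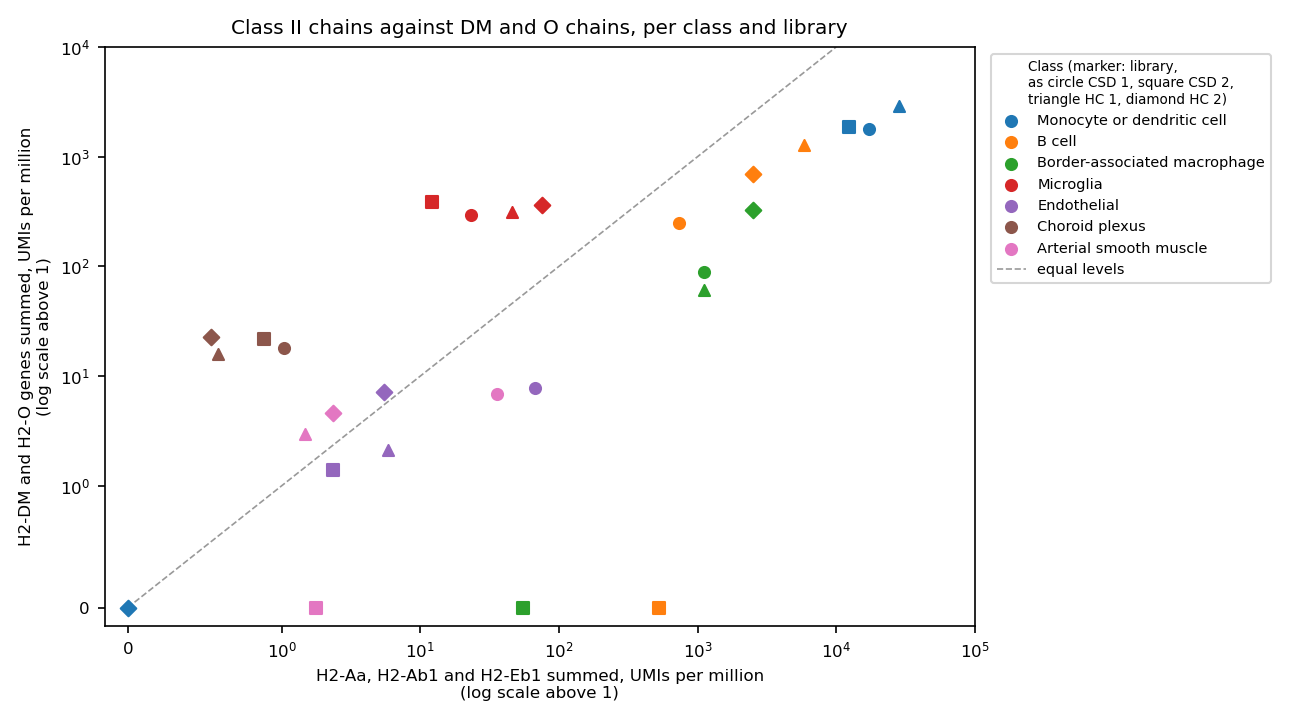
Summed level of the H2-DM and H2-O chains (vertical) against that of H2-Aa, H2-Ab1 and H2-Eb1 (horizontal), in CPM on log axes above 1, with 1 point per class and library and a dashed line of equal levels. The 4 microglia libraries lie above the line at 294 to 389 against 12.2 to 75.3, choroid plexus libraries also lie above it, and monocytes or dendritic cells, B cells and border-associated macrophages lie below it, except for the HC 2 monocyte or dendritic library, which holds 0 of both.

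H2-DM and H2-O were spread over many microglia. With each cell thinned to 500 UMIs, 14.2% of microglia had such a UMI (13.2 to 15.3, n = 4342 cells), at 12.8 to 16.3% in the 4 libraries, against 0.316% of endothelial cells (0.177 to 0.521), a class that is not known to make them. Unthinned shares were 49.9 and 0.612%, at medians of 2114.5 and 1099.5 UMIs. H2-DMa gave most of them, at 161, 231, 170 and 200 CPM. H2-Oa stood at 41.7 ± 12.2 CPM, H2-Ob at 19.5 ± 3.84 and H2-DMb2 at 3.55 ± 0.361. Microglia held 73.2% of all H2-DM and H2-O UMIs in cells and choroid plexus 10.7%, beside 30.1 and 11.7% of the cells. These shares of cells leave out depth, since the median cell held 2114.5 UMIs in microglia and 13712 in choroid plexus. Per UMI of the class, summed class II stood at 493 ± 50.6 CPM in microglia and 21.0 ± 3.49 in choroid plexus.

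Cd74 and the H2-A and H2-E chains were gathered in few cells. Of their 12407 UMIs, 87.9% lay in 104 cells with 10 or more, of which 57 were in no class, 16 were monocytes or dendritic cells, 14 B cells, 6 border-associated macrophages, 6 microglia, 4 endothelial cells and 1 arterial smooth muscle cell. Cells in no class held 48.2% of these UMIs, monocytes or dendritic cells 27.8% and microglia 12.9%. The 57 cells in no class did not meet the gate, and whether they missed its number of markers or its ratio was not separated. Microglial markers came first in 21 of them and border-associated macrophage markers in 17. Ciita, the transactivator of class II, gave 6 of its 21 UMIs in monocytes or dendritic cells. In RNA outside cells class II stood at 53.7 to 99.9 CPM.

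In microglia 6 of 4342 cells (1, 1, 2 and 2 in CSD 1, CSD 2, HC 1 and HC 2) held 88 of 103 H2-Aa UMIs, 92 of 107 H2-Eb1 UMIs and 80 of 184 H2-Ab1 UMIs. Together that was 66.0% of the UMIs of these chains. In the other microglia the 3 chains summed to 13.3, 11.9, 11.2 and 13.4 CPM in CSD 1, CSD 2, HC 1 and HC 2, of which H2-Ab1 gave 104 UMIs and H2-Aa and H2-Eb1 gave 15 each. That sum overlapped between the conditions, but the chains taken singly did not all do so: H2-Aa stood at 0.947 and 0.699 CPM in CSD against 2.08 and 2.15 in HC, and H2-Ab1 at 10.4 and 10.1 against 8.33 and 9.48. The H2-Aa values rest on 3 and 2 UMIs in CSD 1 and CSD 2 and on 5 and 5 in HC 1 and HC 2. The 6 cells were set apart by UMIs of the same genes, so these values are a description. In endothelial cells 4 of 4742 cells, all in CSD 1, held 128 of 157 UMIs of the 3 chains (81.5%). These 4 cells had 22 to 152 endothelial marker UMIs, 0 to 4 microglial ones and 3 to 9 of border-associated macrophages. The 6 microglial cells had 4 to 88 microglial marker UMIs, 1 to 5 of border-associated macrophages and 0 endothelial ones. Those with 150, 145 and 59 UMIs of Cd74 and the 3 chains had 6, 7 and 4 microglial marker UMIs. Those with 93, 11 and 10 had 26, 88 and 16. The cells richest in these genes were thus placed in microglia by few marker UMIs, except that with 93. Whether these microglial and endothelial cells were single cells or 2 cells with 1 barcode was not tested.

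**Figure D4:**
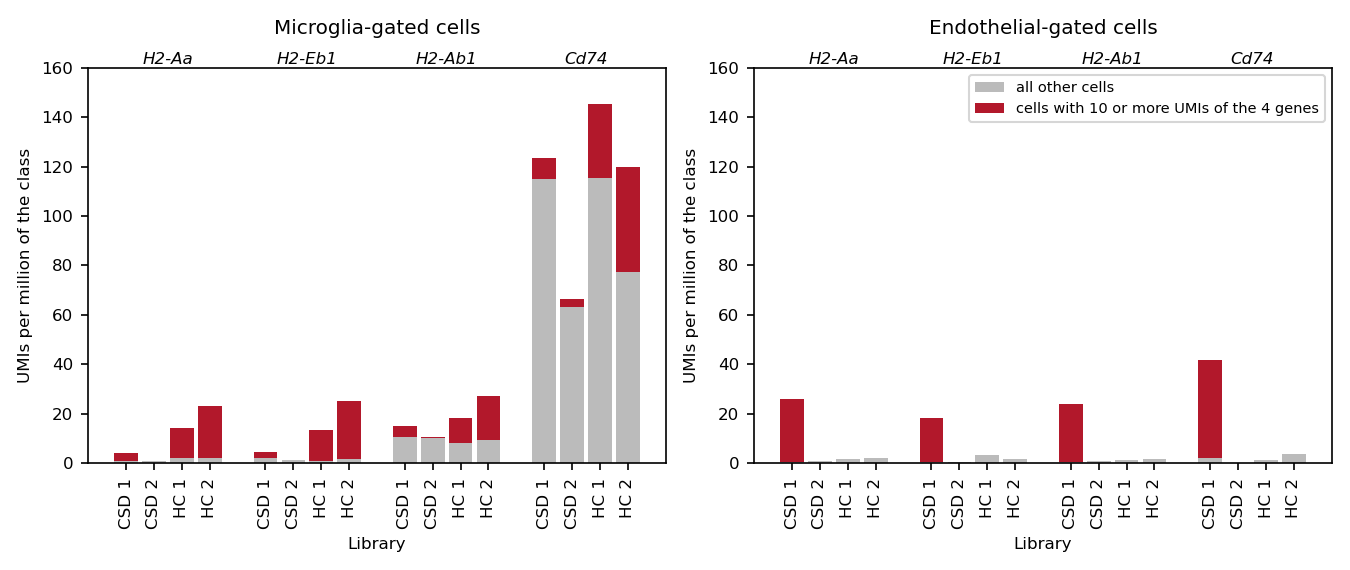
H2-Aa, H2-Eb1, H2-Ab1 and Cd74 in microglia (left) and endothelial cells (right) by library, in CPM of the class, as stacked bars that part the cells with 10 or more UMIs of the 4 genes (red) from all others (grey). In microglia the red part makes up most of H2-Aa and H2-Eb1 but not of Cd74, of which 17.2% lies in the 6 cells, and in endothelial cells nearly all of CSD 1 is red while the other libraries have no red part.

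The comparison of CSD with HC asked whether defeat changed the module within a class. In none of the 11 classes did a member pass the threshold of 0.05 (edgeR's quasi-likelihood test, Benjamini-Hochberg adjustment over all genes tested in the class), and DESeq2 also called 0 members in each class (at an unadjusted p under 0.05 it had 2 in microglia and 0 elsewhere). The members tested numbered 18 in endothelial cells (0.0600% of all genes tested were called), 14 in capillary (0.192%), 16 in arterial (0.0374%) and 14 in venous endothelial cells (0.438%), 3 in pericytes (0.0438%), 11 in arterial smooth muscle (0%), 27 in microglia (0%), 6 in T cells (0%), 3 in astrocytes (0.136%), 7 in ependymal cells (0%) and 17 in choroid plexus (0.0519%). At an unadjusted p under 0.05 there was 1 member in endothelial, 2 in capillary, 1 in arterial and 2 in venous endothelial cells and 3 in microglia, and 0 in each of the other 6 classes. With 2 libraries per condition these tests can find large changes of well-counted genes, and a p that misses the threshold does not show that the levels were alike.

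In endothelial cells 14 of the 18 members tested had a negative log2 fold change, with a median of -0.13 beside -0.01 over all 9996 genes. Psmb9, an immunoproteasome subunit, stood at 74.5 and 57.0 CPM in CSD 1 and CSD 2 and at 105 and 91.3 in HC 1 and HC 2. The groups did not overlap, and its log2 fold change was -0.53 (SE 0.19, unadjusted p = 0.0205, adjusted p = 0.510). The values of Psmb9 did not overlap in arterial cells either (113 and 105 against 153 and 167 CPM; -0.53, SE 0.25, adjusted p = 0.750), nor in venous cells (38.3 and 67.8 against 114 and 90.8 CPM; -0.92, SE 0.36, adjusted p = 0.472). These subclasses are part of the endothelial class and do not add libraries. The capillary values of Psmb9 are not given here, so arterial and venous cells do not stand for every subclass. How many of all genes lacked overlap was not counted, so the lack of overlap is no support for a difference. In microglia the 2 conditions overlapped for Psmb9, at 49.5 and 71.8 against 50.7 and 76.1 CPM.

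H2-Q7 in venous cells stood at 41.7 and 43.2 CPM in CSD against 169 and 18.2 in HC 1 and HC 2, with overlap. Without HC 2 its log2 fold change was -1.94. That fit left HC 1, the highest library, alone in its condition, so the value is no support for a direction. Psmb8 in capillary cells stood at 119 and 101 CPM in CSD and 154 and 155 in HC (log2 fold change -0.46, SE 0.21, adjusted p = 0.568). Nlrc5 in endothelial cells ran the other way, at 6.72 and 7.01 CPM in CSD and 4.27 and 1.65 in HC (1.23, SE 0.56, adjusted p = 0.647), from 39 UMIs. B2m stood at 1213 and 848 CPM in CSD and 1259 and 1045 in HC, with overlap (-0.11, SE 0.21), and its sign turned without CSD 2 or HC 1 (0.16 and 0.07). The signs of H2-K1 and H2-D1, at -0.05 and 0.01, also turned when single libraries were left out.

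Single libraries decided the endothelial count, over all genes as for the members: 6 genes were called with all 4 libraries, 333 without CSD 1 and 148 without CSD 2. Without CSD 1, 2 members were called lower, Psmb9 (-0.73, adjusted p = 0.0332) and H2-Q4 (-0.87, adjusted p = 0.0300). With all 4 libraries Cd74, H2-Aa, H2-Ab1 and H2-Eb1 did not pass the filter on low counts. Without CSD 2 they passed it through CSD 1, alone in its condition, with log2 fold changes of 4.15, 3.81, 4.16 and 2.95. These values are thus no support for a direction. The 4 genes stood at 41.9, 25.9, 23.8 and 18.1 CPM in CSD 1 and at 0, 0.934, 0.934 and 0.467 in CSD 2. The HC libraries held 1.07 to 3.85 CPM of these 4 genes. The 4 cells described above carried most of the CSD 1 value. In arterial cells the log2 fold changes of the same 4 genes were 4.24, 4.42, 4.38 and 5.15 without CSD 2. Without HC 2 they were 7.45, 4.07, 4.03 and 6.95. Cd74 in capillary cells was at 3.95 without CSD 2. With all 4 libraries no class II member passed the filter in these 2 subclasses either. In these fits the library left alone in its condition is assumed to vary like those of the other condition.

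**Figure D5:**
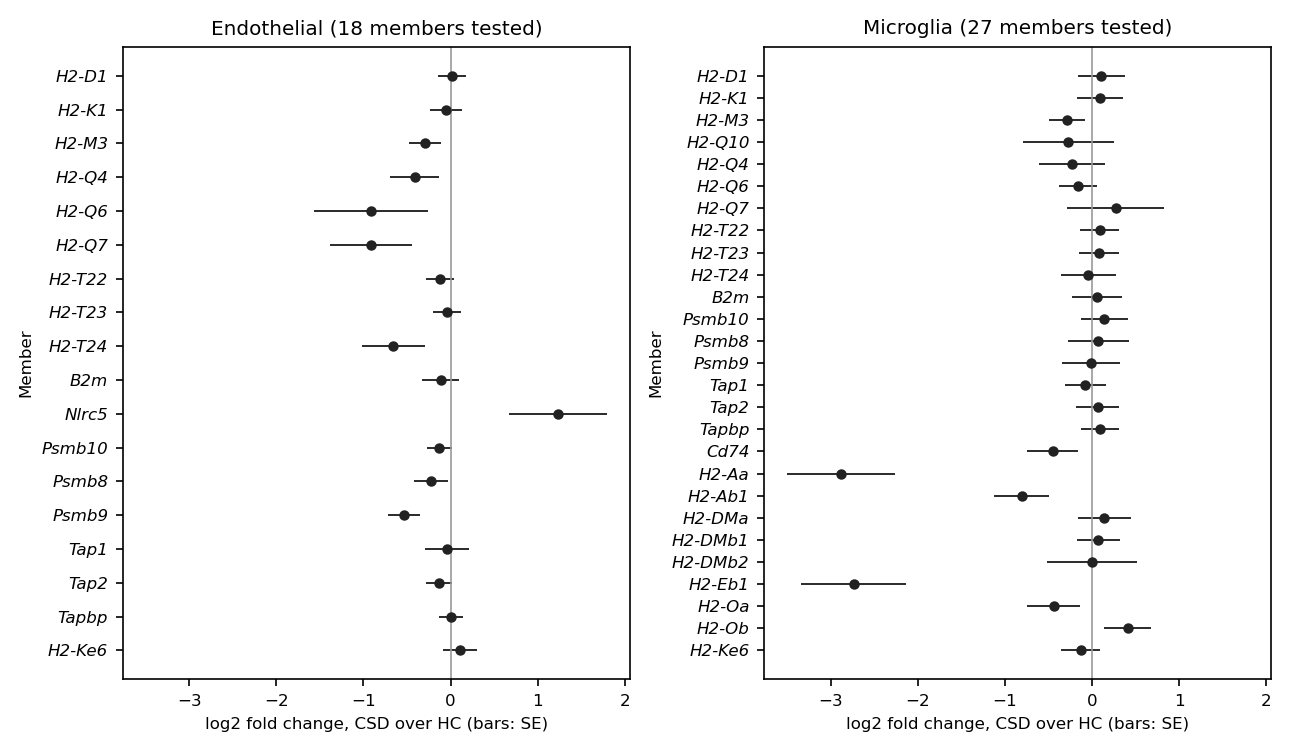
Log2 fold change of CSD over HC with its SE (bars) for each member tested in endothelial cells (left, 18) and microglia (right, 27), n = 2 libraries per condition. Most points lie within 1 of 0; H2-Aa and H2-Eb1 in microglia lie near -2.88 and -2.74, and no member passed the threshold.

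In microglia the class I members lay close to 0, with a median log2 fold change of 0.07 over 17 tested beside 0.01 over all genes, and B2m was at 0.06 (SE 0.29). Its 4 libraries were 1632 and 1669 CPM in CSD and 1543 and 1724 in HC. Of the class II members H2-DMa (0.14, SE 0.30), H2-DMb1 (0.07, SE 0.24) and H2-DMb2 (0.00, SE 0.51) also lay near 0. H2-Aa stood at 4.10 and 0.697 CPM in CSD 1 and CSD 2 and at 14.1 and 23.2 in HC 1 and HC 2, with a log2 fold change of -2.88 (SE 0.62, unadjusted p = 0.00274, adjusted p = 0.9997). H2-Eb1 stood at 4.42 and 1.05 against 13.3 and 24.9 CPM (-2.74, SE 0.60, unadjusted p = 0.00306, adjusted p = 0.9997). H2-Ab1 was at 14.8 and 10.5 against 18.3 and 27.1 CPM (-0.80, SE 0.32, unadjusted p = 0.0404, adjusted p = 0.9997). The conditions did not overlap for these 3 genes, and 88, 92 and 80 of their UMIs came from the 6 cells above. Of these cells 1 lay in each CSD library and 2 in each HC library. How many of all genes lacked overlap was not counted, so the lack of overlap is no support for a difference. With no filter on low counts H2-Aa and H2-Eb1 were called lower in CSD (-2.86 and -2.71), and the cause was not tested. How many of all genes that fit called is not given here, so these calls are no support for a difference. Summed markers of monocytes or dendritic cells in microglia were 2.84 and 4.18 CPM in CSD and 4.99 and 9.46 in HC, with 4 of 9 markers at 0 UMIs, and those of border-associated macrophages 138 and 117 against 115 and 96.8, of which Stab1 gave 94.9%. Their part in the H2-Aa values was not tested. CSD 2 microglia also stood apart in depth, with a median of 5043 UMIs per cell against 1869 to 2728, and their part in these values was not tested.

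The difference between the CSD effects of 2 classes was tested as an interaction with library as a block. For microglia minus endothelial cells 1 of 27 members was called, H2-Aa (-5.78, SE 0.69, adjusted p = 0.00641). It was the single gene called among 11262 (0.00888%), and H2-Eb1 was not called (-4.69, SE 0.80, adjusted p = 0.191). H2-Aa in endothelial cells stood at 25.9 and 0.934 CPM in CSD and 1.60 and 2.20 in HC, with CSD 1 the highest. The 4 endothelial cells held 49 of the 59 endothelial H2-Aa UMIs. The high sums through which H2-Aa passed the filter on low counts came mostly from a few cells of each class, so its call is no support for a difference. Without CSD 1 the value was -3.58 and no member was called, and DESeq2 and the stricter gate also called 0 members. Without CSD 2, HC 1 or HC 2 the H2-Aa value was -6.04, -5.93 and -5.54. For venous minus capillary endothelial cells 0 of 16 members were called (0.0450% of all genes; 0 members at an unadjusted p under 0.05, and 0 with DESeq2).

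Further genes of the pathway, in a fixed list of 24 outside the module, were measured beside it. In microglia against endothelial cells 16 of the 22 tested were called, 12 higher and 4 lower, where 61.1% of all genes were called. Those higher included the class II proteases Ctss (log2 fold change 7.84, SE 0.30) and Lgmn (6.53, SE 0.20), the co-stimulatory ligand Cd86 (7.32, SE 0.25) and the interferon-γ receptor chains Ifngr1 (3.06, SE 0.16) and Ifngr2 (2.94, SE 0.17). Ctss stood at 5072 ± 301 CPM in microglia and 31.9 ± 16.7 in endothelial cells. Those lower included Cd40 (-4.85, SE 0.39), the IgG transport receptor Fcgrt (-2.17, SE 0.14) and the peptide trimmer Erap1 (-0.45, SE 0.17). The filter on low counts was run over the sums of all classes. Genes low in either class of a comparison, such as Cd86 and Cd40 here, thus passed it through the classes where they are high. Such calls, and the counts of the list here and in the other classes, are no support for a direction. The list was called in other classes as 9 lower and 2 higher of 22 in pericytes (29.5% of all genes called), 13 and 3 in smooth muscle (45.2%), 14 and 1 in astrocytes (44.8%), 10 and 2 in ependymal cells (61.9%), 11 and 7 in choroid plexus (75.5%) and 8 and 1 in T cells (35.5%). Between CSD and HC 0 of the list were called in each of the 11 classes. The number tested ran from 3 in T cells, 4 in astrocytes and 8 in pericytes to 23 in microglia. Of all genes tested, 0 to 0.438% were called, so 0 calls in the list do not show that its levels were alike. The lowest unadjusted p in endothelial cells was that of Cd40, at 20.7 and 22.4 CPM in CSD and 34.7 and 30.8 in HC (-0.55, SE 0.21, adjusted p = 0.549).

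Over 46 sums of 16 classes in the 4 libraries, the genes outside the module whose level followed B2m most closely were Akap13 (Pearson r = 0.910), Ly6e (0.907), Arpc3 (0.900), Srgn (0.896) and Arhgdib (0.841). For Cd74 they were Wdfy4 (0.886), Fcgr2b (0.862), Nrros (0.860), Cybb (0.853) and Pkib (0.834). The sums share libraries and classes, so these values are a description.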

How the data were processed

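Each of the 4 libraries was deposited by the authors as raw UMI counts per gene for all barcodes, with no cell calling. The submitters' processing notes name Cell Ranger 4.0 and the GRCm38 (mm10) build, and the matrix header names 3.1.0. Barcodes with at least 500 UMIs, 250 genes and at most 25% mitochondrial UMIs were kept as cells. A cell entered a class with at least 3 different markers and 3 times the marker UMIs of any other list (2 and 2 for endothelial subclasses), and 859 cells lay near these limits. No doublet caller was run, and the ratio leaves out cells with markers of several types. Counts were summed per library and class, and classes with at least 10 cells in every library were tested with edgeR 4.0.16 (filterByExpr, TMM, quasi-likelihood test, two-sided, Benjamini-Hochberg adjusted p under 0.05) in R 4.3.3, after the code was tested on simulated data. CSD and HC were compared within a class, each class was compared with endothelial cells in 1 fit of all sums, and interactions were fitted on the sums of both classes. DESeq2 1.42.0, median-ratio size factors, no filter on low counts, at least 1000 UMIs per cell, a stricter gate (4 markers, ratio 5), a complexity filter, a replicate block and leaving out each library were the alternatives. Thinning drew 500 UMIs per cell, and RNA outside cells was taken from barcodes with at most 100 UMIs. Intervals are exact 95% binomial and, like the limit of 3 UMIs at a count of 0, cover counting error only. Total UMIs per library were 27297599 to 30361474. Promoter windows came from RefSeq and gene positions from GENCODE vM21. Python 3.11.15 with pandas 2.3.3 and scipy 1.17.1 was used for the rest.

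Every module member was accounted for and named by group; outside it were named the 5 genes most correlated with B2m or Cd74 on log2(CPM + 10) and pathway genes that passed the test, plus Cd40 in the CSD comparison, chosen after its value was seen. The members, the lists and the tests were chosen with earlier results of these data known, and the promoters shown and motifs were chosen after the matches were seen. One listed pathway gene, Ifi30, was not among the genes counted. Some items of these lists are not reported here.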

Additional observations from a re-analysis of the deposited data

Results flagged for a closer look

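H2-Aa, the α chain of class II H2-A, was called in the test of the difference between the CSD effects in microglia and in endothelial cells. The log2 fold change in microglia minus that in endothelial cells was -5.78 (SE 0.69, edgeR's quasi-likelihood interaction test, Benjamini-Hochberg adjusted p = 0.00641 over 11262 genes). H2-Aa stood at 4.10, 0.697, 14.1 and 23.2 CPM in microglia and at 25.9, 0.934, 1.60 and 2.20 CPM in endothelial cells of CSD 1, CSD 2, HC 1 and HC 2. In endothelial cells CSD 1 was thus the highest library and CSD 2 the lowest. In microglia 6 cells held 88 of the 103 H2-Aa UMIs, and in endothelial cells 4 cells of CSD 1 held 49 of 59. The high sums through which H2-Aa passed the filter on low counts came mostly from these cells, so the call is no support for a difference. Over the alternatives the value ran from -6.27 with the stricter gate (adjusted p = 0.0661) to -3.58 without CSD 1 (adjusted p = 0.808), and it was also not called with DESeq2 (-5.37, adjusted p = 0.418).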

How the results depend on the processing

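Of the counts of members called, 191 of 211 alternatives stayed within 1.5 times of the reported count. For named members 481 of 534 alternatives kept direction and side of the threshold, where those with no adjusted p were judged by direction alone. Of the summed levels 105 of 112 moved by less than 1 SD. The cause of the exceptions was not tested. With no filter on low counts, the CSD comparison called 1 member in capillary cells, 4 in arterial cells, 1 in smooth muscle and 2 in microglia, microglia against endothelial cells 20, and the interaction of microglia and endothelial cells 4. How many of all genes these fits without the filter called is not given here, so these counts are no support for a change of the module. The interaction of microglia and endothelial cells had 0 members called with DESeq2, 2 with at least 1000 UMIs per cell and 0 with the stricter gate. Leaving out 1 library at a time changed which members were called in endothelial, capillary, arterial and venous cells and in the interaction. The sign of H2-D1 in endothelial cells turned with at least 1000 UMIs (-0.017) and the stricter gate (-0.031). Without 1 library the log2 fold changes in endothelial cells ran from -0.39 to 0.16 for B2m, -0.23 to 0.19 for H2-K1, -0.090 to 0.16 for H2-D1 and -1.47 to 0.052 for H2-Q7, in microglia from -0.051 to 0.21 for B2m and -0.23 to 0.45 for H2-DMa, and for Cd74 in the interaction from -4.36 to 4.44 (the latter without CSD 1). Summed class I moved to 865 CPM in smooth muscle and 478 CPM in astrocytes with the stricter gate, and with TMM-scaled totals to 1079 in smooth muscle, 4815 in microglia, 6993 in T cells and 528 in choroid plexus, with class II in microglia at 606. Over all genes, CSD against HC in endothelial cells called 6 genes in the reported fit, 55 with DESeq2, 2 without the filter, 98 with the replicate block, 333 without CSD 1 and 148 without CSD 2. The library numbers give 2 pairs, and nothing in the labels says that a number marks a shared batch, so they were not taken as pairs: deviations of same-numbered libraries correlated at -0.0042 in pericytes to 0.55 in microglia. With the replicate block, 1 member was called in microglia, H2-Aa (-2.84, adjusted p = 0.0473), and 10 genes in all. The interaction fits already hold the library as a block. H2-Aa, H2-Ab1 and H2-Eb1 rest on 394 UMIs in all microglia, and 10 members were at 0.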
